A study of Mus musculus with 29 samples.

Results

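The response of wild-type mouse urothelium to 1 month of N-butyl-N-(4-hydroxybutyl)-nitrosamine (BBN), a bladder carcinogen, was followed by RNA-seq in 8 of the 29 samples of the series. These are the 4 untreated samples and the 4 samples after 1 month of BBN whose labels point to one and the same table of normalized counts. All 8 were wild type, with no transgene and no induced allele. The untreated samples are listed as homeostasis, and the BBN samples (1M BBN) as pre-disease. BBN was given at 0.05% in the drinking water, and the protocol in the labels names a time of 3.5 weeks for the early end point. Urothelium was loosened with a cold active protease, separated by hand from the stroma and made into libraries with a low-input SMART-Seq kit, without a cell sort described for these samples, so each library holds the whole detached layer and any other cells in it. Ages were not given, and the labels do not say that each sample came from its own mouse, so the p-values measure the spread between these samples. The question addressed was how exposure to the carcinogen alters the cell populations of the urothelium and the inflammation in it before tumors form. In such bulk samples, fewer cells of a type and less RNA per cell cannot be told apart.

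The urothelium is a layered epithelium. Basal cells, marked by Krt5, lie on the basement membrane, intermediate cells lie over them, and umbrella cells at the surface carry uroplakin plaques that keep urine out. The nuclear receptor Pparg, with Gata3 and Foxa1, is known for its role in the luminal program, and injured urothelium can take on squamous features with stratified keratins such as Krt14 and Krt6a. BBN is oxidised to a product that damages DNA.

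The labels do not say which 4 columns of the table are untreated, so the direction of every comparison is inferred. The name of the table lists its columns around the word vs, and the 4 columns named first were taken as untreated. This order was read from a table of sorted cells of the series. There the numbers of columns before and after that word, 4 and 5, equal the numbers of control and mutant samples that the labels assign to it. In another table of sorted cells these numbers are 3 and 3. The labels assign that one 3 control and 4 mutant samples, so only the first number matches. Protein markers that the study describes by staining were used as a check. By group means, 6 of 6 markers lay on the side reported for BBN under this reading, and 5 of the 6 did not overlap between the sets. Of the 29 genes that the study's text names from these libraries, 29 had the reported direction by group means (28 with each library left out in turn, since Il6 turned without BBN library 1), although these genes were chosen on the same libraries. A stricter form of the check, which also asked that Krt20 should not overlap, was not met. Since these 35 genes were used to set the direction, their values are given without a test between the sets wherever they are named. A swap of the sets would turn every direction given here. These 35 genes are left out of the counts and medians of called members of gene lists, but not out of summed levels. Of the genes named below these are Krt20, Mki67, Ptprc, Rela, Upk1a, Upk1b, Upk2, Upk3a, Upk3b, Krt5, Krt6a, Krt6b, Krt14, Krt16, Krt18, Krt1, Gata3, Foxa1, Fgfr3, Cd44, Nfkb2, Jun, Fosl1, Il1a, Il18, Il6, Ifng, Cd4, Cd8a and Foxp3. Libraries are numbered in column order, and a number only names a library.

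Krt14, a basal and squamous keratin, lay at 389, 231, 185 and 120 normalized counts in the 4 untreated libraries and at 22671, 21020, 45034 and 18899 in the 4 BBN libraries. Krt6a, a keratin of wounded and squamous epithelium, lay at 16.6, 15.8, 2.47 and 16.5 untreated and at 16479, 16993, 16725 and 12274 with BBN. Mki67, which marks cycling cells, lay at 118, 85.9, 42.5 and 73.9 untreated and at 3822, 2392, 6904 and 1639 with BBN. The sets of these 3 genes were far apart. Ptprc (Cd45), carried by leukocytes, lay at 67.1, 97.9, 196 and 171 untreated and at 1185, 540, 603 and 827 with BBN. Rela, an NF-kB subunit, lay at 2546, 2518, 2144 and 2576 untreated and at 3032, 3543, 3005 and 3172 with BBN. Ptprc and Rela did not overlap either, although the distance for Rela was small. Krt20, an umbrella cell keratin, lay at 7209, 4692, 7985 and 11195 untreated and at 1013, 2423, 4749 and 10760 with BBN. Only BBN libraries 1 and 2 lay below every untreated library for Krt20, and BBN library 4 lay above 3 of the 4.

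**Figure D1:**
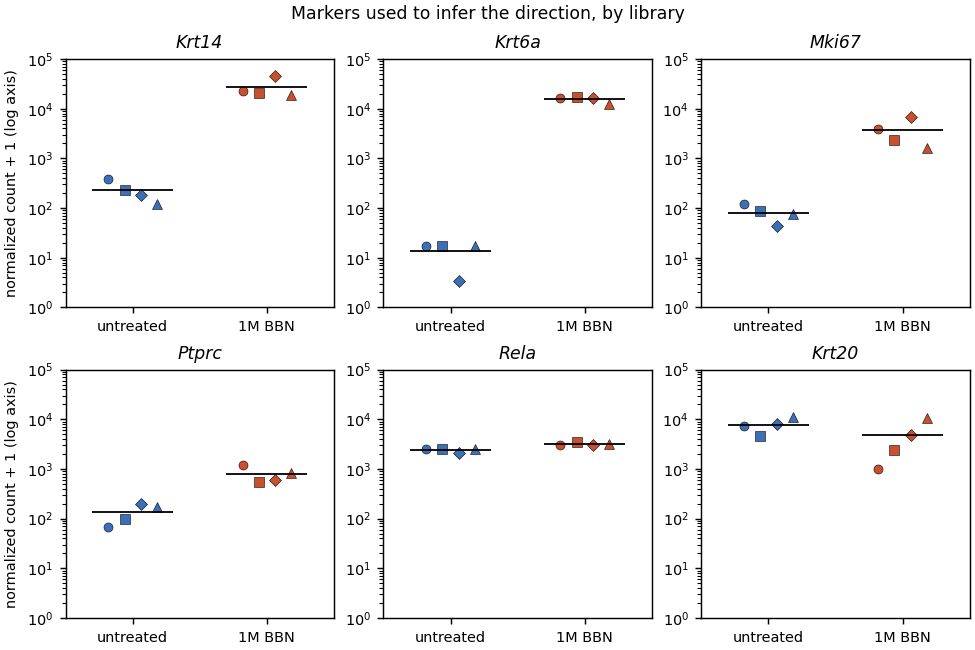
Normalized counts plus 1 on a log axis for the 6 markers used to infer the direction, with 1 symbol per library (circle, square, diamond and triangle for libraries 1 to 4) and a line at each set's mean. Krt14, Krt6a, Mki67, Ptprc and Rela do not overlap between the sets, and Krt20 does, with BBN library 4 at 10760.

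The 8 libraries held between 34623700 and 38912300 normalized counts each, a scale set by the authors' normalization and not the read depth. Between 15552 and 15890 genes reached 10 normalized counts in a library, and mitochondrial transcripts took between 4.34% and 6.31%. The table lists 35204 genes. A gene entered the limma test where 4 libraries or more reached 10 normalized counts, which left 15905, and differences are on log2(value + 1), which shrinks the differences of weakly expressed genes. At an adjusted p under 0.05, 3815 genes (24% of those tested) were higher and 3707 (23.3%) were lower with BBN, and the sets did not overlap for 7275 genes (45.7%). The median difference over all genes was 0.00 on the log2 scale. Large differences leaned upward, since 1012 called genes were higher by more than 2 on the log2 scale and 497 were lower by as much. Pearson's correlation of log2 values across genes, which are not independent replicates, was between 0.973 and 0.98 for pairs of untreated libraries, between 0.954 and 0.968 for pairs of BBN libraries, and between 0.86 and 0.893 across the sets. With 47.3% of all genes called, a share of called members in a list is read beside these backgrounds throughout. The filter keeps a gene that is high in 1 set alone, so these shares and the medians of lists are descriptions.

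**Figure D2:**
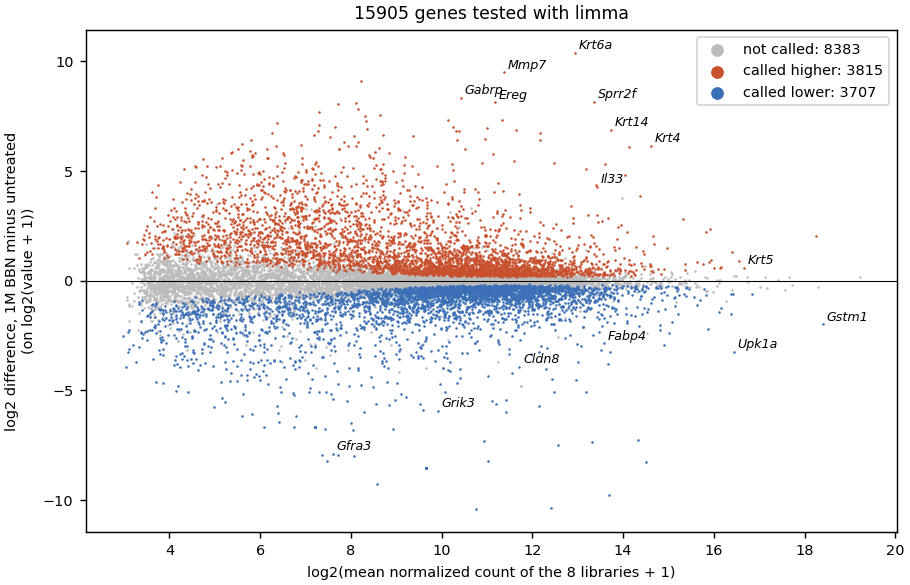
Difference between 1M BBN and untreated on the log2(value + 1) scale (vertical axis) against log2 of the mean normalized count of the 8 libraries plus 1 (horizontal axis), 1 point per gene tested. Called genes lie on both sides, 3815 higher and 3707 lower, with Krt6a at the top among the genes named.

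Copies of ribosomal protein genes separated the 2 sets of libraries. Pseudogenes of ribosomal proteins are near-identical copies of their parent genes, and the counting can split reads between such copies, so their values are uncertain. Of 42 ribosomal protein pseudogenes tested, 20 were called lower with BBN and the other 22 did not pass. Rps18-ps5 lay between 9488 and 12120 untreated and between 1.89 and 12.4 with BBN, while its parent Rps18 lay between 964 and 1299 untreated and between 31220 and 33913 with BBN. Rps2-ps13 lay between 35461 and 44748 in untreated libraries and at 9.59, 22.9 and 49.8 in 3 BBN libraries, but at 23900 in BBN library 4. The summed level of all ribosomal protein genes was between 1939030 and 2096990 untreated and between 1802620 and 1983640 with BBN. Whether strain, sequencing run or read handling differed between the sets was not tested, and anything shared by all libraries of a set cannot be told apart from BBN. Without ribosomal protein genes, pseudogenes and predicted genes named Gm, an alternative chosen after these values were seen, 3761 genes were higher and 3520 lower.

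The 10 largest rises outside predicted genes and pseudogenes were those of Krt6a, Mmp7, Ltf, Gabrp, Sprr2f, Ereg, Krt6b, Skint3, Anxa10 and Tnfsf4, in that order. They were taken from called genes that did not overlap and had a mean of at least 100 in the higher set. Krt6a and Krt6b were used for the direction, so their place among the 10 is a description. Mmp7 (matrilysin), a secreted metalloprotease, lay at 6.61, 16.1, 2.45 and 3.64 untreated and at 4911, 5857, 7841 and 2608 with BBN (log2 difference 9.51, SE 0.51). Gabrp, a GABA-A receptor subunit of epithelia, lay between 4.48 and 12.1 untreated and between 1787 and 5172 with BBN. Anxa10, an annexin, lay between 0.987 and 2.66 untreated and between 427 and 838 with BBN. Tnfsf4 (Ox40 ligand), a costimulator of T cells, lay at or below 1.11 untreated and between 156 and 510 with BBN. Ltf (lactoferrin), an iron-binding defence protein, was listed at 0 in all 4 untreated libraries and lay at 539, 959, 588 and 301 with BBN. Skint3, of a family known in skin T cell selection, was also listed at 0 in all 4 untreated libraries and lay at 1061, 377, 114 and 114 with BBN. For each of these genes every BBN library was above every untreated library. The values of Krt6a are given above, and those of Krt6b, Sprr2f and Ereg with their groups.

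Gfra3, a receptor for a neurotrophic factor, had the largest fall by the same choice and lay between 249 and 503 untreated and at 1.17, 0, 1.92 and 0 with BBN. Grik3, a kainate receptor subunit, lay at 1957, 1386, 2159 and 2074 untreated and at 24.3, 42.5, 15.5 and 46.3 with BBN (log2 difference -5.94, SE 0.34, limma adjusted p = 4.4e-06). Cacna1h, a T-type calcium channel, lay at 1932, 1064, 1612 and 1446 untreated and at 81.3, 14.8, 15.6 and 17.0 with BBN. Ttr (transthyretin), a carrier of thyroid hormone and retinol, lay between 319 and 1543 untreated and between 2.87 and 31.4 with BBN. Dmgdh, a mitochondrial enzyme of choline breakdown, lay between 368 and 675 untreated and between 0.631 and 21.2 with BBN. Syt14, Vstm2b, Fbxw22, Coch and Dnah11 made up the rest of the 10, with log2 differences from -6.82 to -5.72. None of these falls overlapped between the sets.

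Short motifs were looked for in the promoters of gene lists, with every listed gene that has a RefSeq window counted whether or not it was tested, called or used for the direction, in windows from 250 bases before to 50 bases after the start site given by RefSeq for GRCm38.p6, on both strands. The AP-1 motif TGANTCA was present for 17 of the 39 genes with a window in the squamous list and for 7 of 18 in the list of wound matrix and protease genes, beside 8.97% of all 27025 genes with a window. No other list had a larger AP-1 share than these 2. The share was 4 of 13 for checkpoint genes, 1 of 45 for G2 and M phase genes and 1 of 28 for p53 genes. Of the members called higher the motif was present for 6 of 11 in the squamous list and 4 of 9 in the wound list. The interferon motif, GAAA, 2 bases of any kind and GAAA, was present for 20 of 31 interferon-induced genes beside 3.99% of all genes, and the NF-kB motif, GGG, 2 bases of any kind and TTTCC, for 4 of 12 NF-kB genes and 5 of 23 chemokine genes beside 1.89%. For AP-1 the share was 6.90% of the tested genes with a window, 8.75% of those called higher and 6.72% of those called lower. For the interferon motif these shares were 3.93%, 4.78% and 3.34%, and for NF-kB 2.01%, 2.82% and 1.46%. Members of 1 family share promoter sequence, so they are not separate observations, and a match is a description of letters. The 250 bases before the start site are shown for the 3 genes that hold an AP-1 motif there among the 6 of the 10 largest rises that have an entry (Krt6a, Krt6b, Ereg and Tnfsf4 have none), Mmp7 at chr9:7691840-7692089 (+ strand), Sprr2f at chr3:92364937-92365186 (+ strand) and Anxa10 at chr8:62123194-62123443 (- strand), and for Oas1a at chr5:120907526-120907775 (- strand) and Isg15 at chr4:156200819-156201068 (- strand), chosen after their values were seen as the interferon-induced genes with the largest rises that hold the interferon motif. Each reads 5′ to 3′ toward the gene, and capitals mark the bases covered by the motif, where copies may overlap.
Mmp7: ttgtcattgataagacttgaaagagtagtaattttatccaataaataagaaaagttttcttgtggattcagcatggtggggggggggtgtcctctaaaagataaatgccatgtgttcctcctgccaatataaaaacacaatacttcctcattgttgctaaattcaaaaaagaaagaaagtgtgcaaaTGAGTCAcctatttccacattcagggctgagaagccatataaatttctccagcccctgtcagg
Sprr2f: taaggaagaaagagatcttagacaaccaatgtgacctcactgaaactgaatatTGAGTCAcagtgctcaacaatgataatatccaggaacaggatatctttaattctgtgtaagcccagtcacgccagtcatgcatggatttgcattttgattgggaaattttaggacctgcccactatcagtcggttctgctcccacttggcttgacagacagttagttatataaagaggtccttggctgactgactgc
Anxa10: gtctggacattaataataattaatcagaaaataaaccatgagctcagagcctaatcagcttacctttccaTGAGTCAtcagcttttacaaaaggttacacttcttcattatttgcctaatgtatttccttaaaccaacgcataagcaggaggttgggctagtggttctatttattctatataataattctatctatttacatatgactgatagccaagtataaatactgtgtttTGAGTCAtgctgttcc
Oas1a: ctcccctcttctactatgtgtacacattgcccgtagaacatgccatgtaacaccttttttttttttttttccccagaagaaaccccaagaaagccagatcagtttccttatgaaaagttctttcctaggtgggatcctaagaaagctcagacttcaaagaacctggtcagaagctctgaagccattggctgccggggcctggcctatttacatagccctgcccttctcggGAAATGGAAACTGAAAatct
Isg15: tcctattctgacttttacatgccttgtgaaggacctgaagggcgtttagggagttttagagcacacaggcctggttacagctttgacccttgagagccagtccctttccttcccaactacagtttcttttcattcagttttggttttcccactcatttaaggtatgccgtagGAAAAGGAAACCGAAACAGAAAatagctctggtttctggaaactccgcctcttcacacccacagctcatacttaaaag
The motif begins 63 bases before the start site in Mmp7 and 197 bases before it in Sprr2f, and Anxa10 holds 2 copies. Oas1a holds 2 overlapping copies of the interferon motif, which begin 20 and 14 bases before the start, and Isg15 holds 3 overlapping copies, which begin 78, 72 and 66 bases before it.

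Among uroplakin genes, Upk1a, Upk1b, Upk2, Upk3a and Upk3b, all used for the direction, were lower with BBN, and Upk3bl was higher. Of the 12 uroplakin and umbrella cell genes tested that were not used for the direction, 5 were called lower and 3 higher, with a median log2 difference of -0.51. Upk1a, a uroplakin of the plaque, lay at 189897, 122821, 144961 and 179243 untreated and at 27112, 19339, 7082 and 20597 with BBN, an 8.59-fold lower mean. Upk2 lay at 68329, 35923, 48743 and 60953 untreated and at 9108, 8018, 3069 and 9882 with BBN, 7.11-fold lower. Upk3a was 4.32-fold lower and Upk1b 2.63-fold lower. In every case the sets did not overlap, and BBN library 3 was the lowest of the 8. Snx31, a sorting nexin of uroplakin turnover, fell from 33257 ± 5816 to 8392 ± 2995 (mean ± SD, n = 4 each). Of the 3 called higher, Upk3bl rose from between 174 and 487 to between 857 and 1960, and Gsdmc, a pore-forming gasdermin, from at most 87.6 to between 462 and 2050, and the third, Krt19, is given with the simple keratins. Upk1a, Upk1b, Upk2, Upk3a and Upk3b are among the genes the study chose from these libraries, so their direction is not independent evidence.

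Of 14 transcription factors of luminal cells tested, 5 were called lower and 4 higher (median -0.02), shares not far from those over all genes. Gata3 lay at 20003 ± 3147 untreated and 8377 ± 1743 with BBN, and Tbx3, a T-box repressor, had a log2 difference of -1.27 (SE 0.12). Pparg fell from 6733 ± 715 to 4017 ± 834 (log2 difference -0.77, SE 0.16, limma adjusted p = 0.0034). Foxa1, a pioneer factor, had a log2 difference of -0.53. Elf3, an epithelial ETS factor, rose 2.31-fold, and Klf4, known in barrier formation, and Rara, a retinoic acid receptor, had log2 differences of 1.00 and 0.93. Klf5 did not pass, with a log2 difference of -0.05 (SE 0.13). Among the simple keratins, Krt19 rose 1.86-fold and the mean of Krt18 was 1.53-fold lower, while Krt7 and Krt8 did not pass and their sets overlapped.

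Lipid genes fell together. Of the 27 PPAR and fatty acid genes tested, 21 were called lower and 6 did not pass, with a median log2 difference of -0.85. Fabp4, a fatty acid carrier and a known Pparg target, lay at 26351, 13131, 21219 and 24856 untreated and at 2533, 3958, 1301 and 5038 with BBN, 6.67-fold lower (log2 difference -2.86, SE 0.40, limma adjusted p = 0.00039). Plin4 and Plin5, coats of lipid droplets, had log2 differences of -3.21 and -2.95. Elovl6, a fatty acid elongase, and Pdk4, a kinase that spares pyruvate, had log2 differences of -1.97 and -1.94. Plin2 did not pass (-0.42, SE 0.22), although without BBN library 4 it had a log2 difference of -0.59 (limma adjusted p = 0.038). Of 21 cholesterol synthesis genes, 17 were called lower and 4 did not pass (median -0.70). Lss, the cyclase that forms lanosterol, lay at 5311, 4268, 5095 and 6309 untreated and at 1140, 1383, 890 and 1059 with BBN, with no overlap. Insig1, a regulator of sterol synthesis, and Fdps, Sqle and Hmgcs1, enzymes of the pathway, had log2 differences of -1.80, -1.43, -1.20 and -1.03. Fabp4, Pparg and Upk1a were lowest in BBN library 3, which had the highest Krt14 and Mki67.

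Basal and hemidesmosome genes were mostly higher, with 11 of 17 called higher and 2 lower (median 0.67). Krt5, which marks basal cells, lay at 76369, 94738, 80481 and 79078 untreated and at 134395, 116235, 137217 and 112238 with BBN, a 1.51-fold higher mean beside the 116-fold higher mean of Krt14. Krt15, a basal keratin, rose 2.48-fold and Itgb4, the hemidesmosome integrin, 2.89-fold, and the mean of Cd44, a hyaluronan receptor, was 3.99-fold higher. Itga3 and Cdh3 (P-cadherin) had log2 differences of 1.57 and 1.55, and Ngfr, a neurotrophin receptor of basal cells, one of 2.58. 2 members of the basal program fell. Trp63, the master factor of basal cells, lay at 11919, 17806, 18304 and 11248 untreated and at 11680, 6658, 8945 and 6305 with BBN (log2 difference -0.83, SE 0.23, limma adjusted p = 0.016), with BBN library 1 inside the untreated range. Dst (dystonin), a plakin of the hemidesmosome, had a log2 difference of -0.45, a call lost after quantile normalization (limma adjusted p = 0.083). Col17a1 did not pass (-0.13, SE 0.21).

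Squamous genes held some of the largest rises among epithelial genes. Of 47 genes listed, 26 passed the filter and 21 stayed under it, and of the 23 that passed and were not used for the direction, 16 were called higher and 1 lower (median 1.98). Krt4 lay at 497, 1219, 531 and 453 untreated and at 89588, 35021, 43846 and 28471 with BBN, a 72.9-fold higher mean. Krt13, its partner in non-cornified squamous epithelium, lay at 116, 154, 40.2 and 170 untreated and at 5476, 471, 2343 and 853 with BBN, so that it spread widely among BBN libraries. Krt6b lay at 1.11, 0, 0 and 0 untreated and at 711, 674, 777 and 32.5 with BBN, and Krt16, a keratin of activated keratinocytes, lay at or below 1.11 untreated and between 125 and 165 with BBN. Krt6a and Krt6b are close copies, and the split of reads between them is uncertain. Sprr2f, a small proline-rich protein of the cornified envelope, lay at 88.4, 116, 32.3 and 48.4 untreated and at 9439, 13912, 28092 and 32128 with BBN (log2 difference 8.17, SE 0.48, limma adjusted p = 5.1e-06), and Sprr2g had one of 6.85. Crnn (cornulin) was listed at 0 in all untreated libraries and lay between 57.7 and 230 with BBN, and Tgm1, which cross-links the envelope, had a log2 difference of 3.13. Other envelope genes did not follow. Sprr1a, already between 107844 and 164990 untreated, was called lower with a log2 difference of -0.59, a call lost without untreated library 1, 2 or 4 or BBN library 3 or 4 (limma adjusted p from 0.059 to 0.090), and Ivl (involucrin) did not pass (-0.27, SE 0.25). Krt1 and Krt10, keratins of cornified epidermis, were at or below 677 in every library. Krt10 did not pass, although without BBN library 3 it had a log2 difference of -0.73 (limma adjusted p = 0.013).

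Of 10 desmosome genes tested of 14 listed, 8 were called higher and 1 lower (median 0.80). Dsg3, the desmoglein of stratified epithelium, lay at 47.6, 50.3, 9.89 and 22.1 untreated and at 1506, 3173, 6416 and 5105 with BBN, a log2 difference of 6.97 (SE 0.58), while Dsg2, the desmoglein of simple epithelium, had one of -0.59 (SE 0.13). Dsc3 and Pkp1 had log2 differences of 3.91 and 2.66. Of 24 tight junction and transport genes, 7 were called higher and 7 lower (median 0.12), shares near those over all genes. Cldn8, a claudin of tight epithelia, fell from 6273 ± 1077 to 443 ± 191, and Scnn1g, a subunit of the epithelial sodium channel, had a log2 difference of -2.77. Cldn3, a claudin, lay between 18.7 and 46.5 untreated and between 831 and 1462 with BBN. Aqp4 and Aqp9, water and glycerol channels, had log2 differences of 6.13 and 3.52. Cldn4 did not pass (0.10, SE 0.24).

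**Figure D3:**
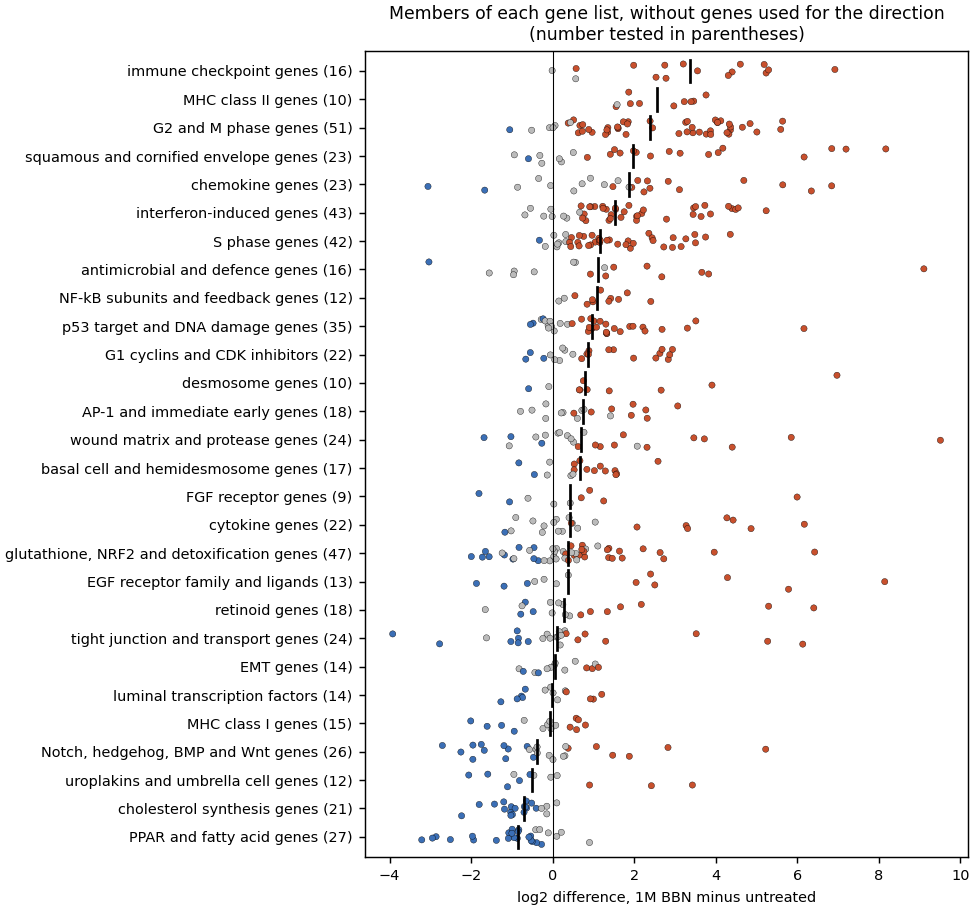
Log2 difference between 1M BBN and untreated for each tested member of 28 gene lists, without the genes used for the direction, 1 point per gene, red where called higher, blue where called lower and grey where not called, with a bar at the list's median. Lists run from the PPAR and fatty acid genes at the bottom (median -0.85) to the immune checkpoint genes at the top (median 3.38), beside 0.00 for all genes.

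Genes of the cell cycle rose broadly. Of 51 genes of G2 and M phase, 45 were called higher and 1 lower (median 2.39), and of 42 S phase genes, 34 were called higher and 1 lower (median 1.15). Cdk1, the kinase that drives mitosis, lay at 51.6, 21.2, 19.5 and 14.9 untreated and at 1030, 621, 1762 and 359 with BBN, a log2 difference of 5.01 (SE 0.52, limma adjusted p = 8.2e-05). Ube2c, which serves the anaphase-promoting complex, Cenpe, a kinetochore motor, and Birc5 (survivin) had log2 differences of 5.64, 5.59 and 4.84. For these 4 genes BBN library 3 was the highest and library 4 the lowest of the BBN set, in the order that Mki67 shows. Among S phase genes, E2f8, Clspn and Dtl had log2 differences of 4.36, 3.75 and 3.50. Of 22 G1 cyclins and CDK inhibitors, 13 were called higher and 3 lower (median 0.86). Ccnd1 (cyclin D1) lay at 2745, 1396, 2356 and 2099 untreated and at 11624, 14633, 14910 and 11006 with BBN, a 6.07-fold rise. Of the inhibitors, Cdkn2a and Cdkn2c had log2 differences of 2.84 and 2.87.

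Targets of p53 rose in the same libraries. Of 35 genes on the p53 and DNA damage list, 23 were called higher and 3 lower (median 0.98). Cdkn1a (p21), the CDK inhibitor induced by p53, lay at 2950, 3129, 2393 and 3497 untreated and at 15921, 26178, 16608 and 19015 with BBN, a 6.49-fold rise (log2 difference 2.68, SE 0.17, limma adjusted p = 6.8e-06). Plk2, a stress-induced kinase, lay at 787, 632, 593 and 823 untreated and at 5760, 10956, 6847 and 5397 with BBN. Eda2r, a receptor of the TNF family, and Tnfrsf10b, a death receptor, had log2 differences of 3.51 and 2.22. Gdf15, a stress cytokine, lay at or below 1.67 untreated and at 55.3, 374, 170 and 40.6 with BBN. Ccng1, Bax and Mdm2, long-known p53 targets, had log2 differences of 1.89, 0.98 and 0.87. Mgmt, which removes alkyl groups from guanine in DNA, lay between 123 and 146 untreated and between 582 and 719 with BBN. BBN library 2 was the highest of the 8 for Cdkn1a, Plk2, Eda2r, Gdf15, Ccng1, Bax, Mdm2 and Tnfrsf10b, whereas library 3 was the highest for Mki67 and Cdk1.

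Of 47 detoxification genes tested, 20 were called higher and 10 lower (median 0.39), the latter a share near that over all genes. Cyp1b1, a cytochrome P450 that oxidises foreign compounds, lay at 435, 71.2, 93.2 and 17.5 untreated and at 5006, 9752, 18175 and 3374 with BBN (log2 difference 6.43, SE 0.87, limma adjusted p = 0.00035). Gpx2, a glutathione peroxidase, Aldh3a1, an aldehyde dehydrogenase, and Gsto1, an omega-class glutathione transferase, had log2 differences of 3.96, 2.73 and 2.22. Nqo1, an NRF2 target, had one of 0.73, a call lost without untreated library 1, 2 or 4 or BBN library 2, 3 or 4 (limma adjusted p from 0.051 to 0.088) and in eBayes without trend (0.058). Gstm1, a mu-class glutathione transferase, lay at 459028, 591171, 559483 and 573508 untreated and at 189985, 176005, 66120 and 156111 with BBN, 3.71-fold lower. Gstm4 and Mgst1 had log2 differences of -1.72 and -1.65. Gstm genes are close copies of one another, and their separate values are uncertain.

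Genes of growth factor signaling followed. Of 13 genes of the EGF receptor family and its ligands, 6 were called higher and 3 lower (median 0.38), and the 6 were ligands. Ereg (epiregulin) lay at 16.6, 13.6, 14.8 and 8.28 untreated and at 2798, 9459, 3723 and 2468 with BBN (log2 difference 8.15, SE 0.41, limma adjusted p = 2.3e-06). Areg (amphiregulin) lay at 99.2, 31.0, 51.5 and 159 untreated and at 4182, 7963, 3268 and 2283 with BBN. Epgn, Btc, Hbegf and Nrg1 had log2 differences of 4.29, 2.51, 2.40 and 2.05, while the ligand Egf had one of -1.87. Of the receptors, Egfr did not pass (0.09, SE 0.16), and Erbb3 had a log2 difference of -0.62. Of 9 genes of FGF signaling, 4 were called higher and 2 lower (median 0.43). Etv4, an ETS factor induced by receptor tyrosine kinases, lay between 2.88 and 7.85 untreated and between 295 and 596 with BBN, and Fgfr1 had a log2 difference of -1.81. Fgfr3, a receptor mutated in many human luminal tumors, lay at 6096, 7867, 6063 and 5874 untreated and at 7393, 4028, 4362 and 4325 with BBN, where library 1 alone lay inside the untreated range.

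Of 26 Notch, hedgehog, BMP and Wnt genes, 11 were called lower and 6 higher (median -0.40), the latter a share near that over all genes. Shh, the hedgehog ligand of basal urothelium, lay at 8574, 9921, 7867 and 11138 untreated and at 4704, 4319, 1313 and 2178 with BBN (log2 difference -1.75, SE 0.37, limma adjusted p = 0.0038), and its target Gli1 had a log2 difference of -2.25. Bmp2 lay at 6144, 4960, 6129 and 6178 untreated and at 1395, 1303, 467 and 749 with BBN, and Id1 and Id3, targets of BMP, had log2 differences of -1.96 each. Neither Shh nor Bmp2 overlapped. Wnt10a rose with a log2 difference of 2.83, and Wnt7a lay at 0, 1.05, 0 and 0 untreated and between 26.7 and 125 with BBN. On the retinoid list 7 of 18 were called higher and 3 lower (median 0.28). Aldh1a3, which makes retinoic acid, lay at 17.5, 27.6, 29.5 and 49.3 untreated and at 3056, 2166, 2596 and 2432 with BBN, and Stra6, a retinol importer, had a log2 difference of 5.30. Of 24 wound matrix and protease genes, 11 were called higher and 3 lower (median 0.70), among them Mmp7 and Adam8, a membrane protease, with log2 differences of 9.51 and 3.72, while Mmp11 and Plau (urokinase) had log2 differences of -1.68 and -1.02. Of 14 EMT genes, 3 were called higher and 2 lower (median 0.05), shares no larger than those over all genes.

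**Figure D4:**
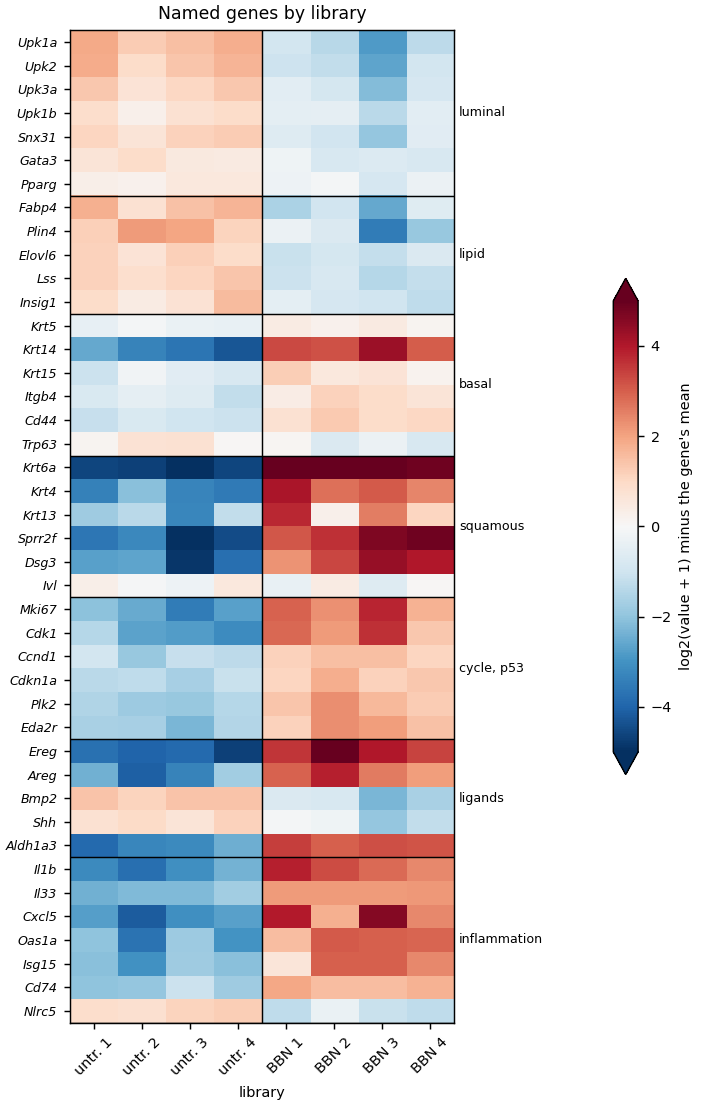
Log2(value + 1) of named genes in each of the 8 libraries, each gene set against its own mean over the 8, in red above it and blue below it, with the colour scale ending at 5 in either direction. The untreated and BBN sets differ in most genes shown, Krt13 and Trp63 vary within the BBN set, and Ivl shows no division.

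Inflammatory genes were next examined. Of 12 NF-kB subunits and feedback genes, 10 were called higher and 2 did not pass (median 1.08). Nfkb2, a subunit of the noncanonical arm, lay at 721, 816, 629 and 1038 untreated and at 2335, 2631, 2243 and 2338 with BBN, and the feedback inhibitor Tnfaip3 (A20), the coactivator Bcl3 and Traf1 had log2 differences of 1.62, 1.83 and 2.41. Of 40 cytokine genes listed, 22 were tested and not used for the direction, of which 8 were called higher and 1 lower (median 0.43). Il33, an alarmin of epithelial nuclei, lay at 908, 1033, 1039 and 1424 untreated and at 20672, 20753, 20935 and 21746 with BBN, a 19.1-fold rise with little spread. Il1b lay at 1.86, 0.895, 2.07 and 4.03 untreated and at 380, 243, 180 and 134 with BBN. Il1a, Il18, Lif and the antagonist Il1rn had log2 differences of 4.91, 2.59, 4.87 and 3.27. Il6 and Ifng were under the filter, with means of 2.42 and 0.227 untreated and 5.60 and 1.44 with BBN. Of 18 AP-1 and immediate early genes, 8 were called higher and 10 did not pass (median 0.74), and Fosl1 had a log2 difference of 3.88. Fos did not pass, and Fos and Jun both spread among untreated libraries, Fos at 28109, 11828, 5307 and 4688 and Jun at 10771, 5091, 2058 and 2195. Untreated library 1 was the highest of its set for both.

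Most chemokine genes that changed rose. Of 32 listed, 23 were tested, and 12 were called higher and 2 lower (median 1.87). Ccl17 and Ccl22, which draw cells bearing Ccr4, had log2 differences of 6.84 and 5.64, and Ccl22 lay between 481 and 825 with BBN. Cxcl5, a ligand of the neutrophil receptor Cxcr2, lay between 1.10 and 4.76 untreated and at 587, 127, 897 and 198 with BBN (log2 difference 6.35, SE 0.63). Cxcl2, another such ligand, had a log2 difference of 3.11, with overlapping sets, and its call was lost without any 1 of untreated libraries 1, 2 and 3 or BBN libraries 1, 2 and 3 (limma adjusted p from 0.054 to 0.10), with a pseudocount of 10 (log2 difference 1.71, limma adjusted p = 0.069) and in eBayes without trend (0.058). Cxcl14, a chemokine of resting epithelia, lay at 2009, 1425, 657 and 1154 untreated and at 95.2, 86.4, 425 and 126 with BBN, and Ccl28, a mucosal chemokine, had a log2 difference of -1.67. Of 16 antimicrobial and defence genes tested, 8 were called higher and 1 lower (median 1.10). Reg3g, a bactericidal lectin, had a log2 difference of 3.83, and Nos2, the inducible nitric oxide synthase, one of -3.03. Lcn2 did not pass (0.56, SE 0.51).

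Interferon-induced genes rose, with 35 of 43 called higher and 8 not called (median 1.54). Oas1a, a sensor of double-stranded RNA whose promoter is printed above, lay at 46.4, 13.7, 53.4 and 22.9 untreated and at 546, 1568, 1489 and 1439 with BBN (log2 difference 5.24, SE 0.48, limma adjusted p = 4.3e-05). Mx1, an antiviral GTPase, lay at 695, 3225, 3116 and 2436 with BBN, and Isg15, a ubiquitin-like protein, at 210, 1102, 1109 and 740. BBN library 1 was the lowest of its set for all 3, and still above every untreated library. The Oas and Ifit genes have close copies, so single members are uncertain.

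Genes of antigen presentation were counted by class. Of 10 MHC class II genes tested, 9 were called higher and 1 did not pass (median 2.55). Cd74, the invariant chain, lay at 1016, 1071, 1975 and 1220 untreated and at 15897, 12180, 12055 and 13770 with BBN, a 10.2-fold rise (log2 difference 3.39, SE 0.20, limma adjusted p = 5.1e-06), H2-Ab1 rose 10.8-fold, and Ciita, the transactivator of the class, had a log2 difference of 2.97. Of 15 MHC class I genes, 5 were called higher and 4 lower (median -0.07), shares not far from those over all genes. Nlrc5, the transactivator of class I, lay at 2041, 1954, 2420 and 2643 untreated and at 459, 881, 520 and 459 with BBN, B2m, the light chain, fell 1.90-fold, and H2-K1 had a log2 difference of 0.58, a call lost without untreated library 2 or 4, where 3 members were called higher. H2 genes are close copies, and their separate values are uncertain. On the immune checkpoint list 14 of 16 were called higher and 2 did not pass (median 3.38). Ido1, which breaks down tryptophan, lay between 2.21 and 4.26 untreated and at 200, 1146, 524 and 722 with BBN. Pdcd1 (PD-1) and Ctla4, receptors of T cells, lay at or below 2.75 and 2.16 untreated and at or above 36.7 and 31.4 with BBN, while Cd274 (PD-L1) had a log2 difference of 0.58 (SE 0.12).

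Markers of other cell types were measured in the same libraries, and they bear on the inflammatory lists. Of 22 T cell and cytotoxic markers listed, 11 were tested and not used for the direction, of which 9 were called higher and 1 lower. The 1 called lower was Tbx21, at 59.8, 63.2, 73.2 and 78.0 untreated and at 29.1, 12.5, 11.6 and 12.6 with BBN. The summed level of the 22 was between 261 and 323 untreated and between 606 and 1913 with BBN. That sum includes members used for the direction, Cd4, Cd8a and Foxp3 among them, so its difference is a description. Cd4 lay at or below 21.8 untreated and between 81.5 and 163 with BBN, and Foxp3, the factor of regulatory T cells, between 0 and 3.41 and between 28.6 and 88.6. Cd8a lay at 160, 17.4, 20.9 and 34.8 in BBN libraries. Of 14 macrophage and monocyte markers, 9 were called higher and 2 lower, with a summed level between 5694 and 9071 untreated and between 11735 and 13170 with BBN, and C1qa lay between 96.9 and 304 untreated and between 1334 and 1589 with BBN. Of 10 dendritic cell markers, 9 were called higher and 1 did not pass. Itgax had a log2 difference of 4.12, Ccr7, which marks dendritic cells that migrate, lay at or below 8.22 untreated and between 303 and 581 with BBN, and the summed level lay between 4904 and 6186 untreated and between 7419 and 10497 with BBN. Fscn1, which is not particular to dendritic cells and made up most of that sum, did not pass, and the other 9 markers summed to between 227 and 331 untreated and between 1911 and 3584 with BBN. Of 12 neutrophil markers only 5 passed the filter, of which Csf3r, Cxcr2, Retnlg and Trem1 were called higher and Il1r2 lower. The summed level of the 12, mostly Il1r2 in the untreated libraries, lay between 959 and 3148 untreated and between 424 and 1657 with BBN, and the 11 without Il1r2 summed to between 61.1 and 94.0 untreated and between 257 and 1013 with BBN. Ly6g was at or below 29.5 in every library, and Elane was listed at 0 in all 8. The part of these cells in the rises of cytokines, class II genes and checkpoint genes was not tested.

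BBN library 1 stood apart in several leukocyte markers. Its summed mast cell markers reached 3365 beside 309 to 530.4 in the other BBN libraries, and its B and plasma cell markers 1925 beside 137 to 181, with Jchain at 1444 in this library. Its Gzma, a granule protease of cytotoxic cells, was 476 beside at most 27.0 in the others, and S100a8, of neutrophils, 89.3 beside at most 4.74. Of 6 mast cell markers tested 1 was called higher, and of 7 B and plasma cell markers 1 was called lower, a call lost without untreated library 1 or 3 or BBN library 1, 2 or 3. Without BBN library 1, 8 of the T cell markers were called higher, beside 9 with it. Stromal lists gave another pattern. In limma 0 of 11 fibroblast and 0 of 9 endothelial markers were called, with 1 fibroblast and 0 endothelial markers at an unadjusted p under 0.05, and the fibroblast sum lay between 35390 and 63909 untreated and between 36981 and 75026 with BBN. Without BBN library 2, which had the lowest endothelial sum, 6 endothelial markers were called higher. Without untreated library 4 or BBN library 2, 2 fibroblast markers were called higher. Of 10 smooth muscle markers 2 were called lower and 1 higher, shares no larger than those over all genes. The call of the 1 higher was lost in 6 of the 8 fits without 1 library. Mylk, a kinase also found outside muscle, lay between 4367 and 6094 untreated and between 270 and 852 with BBN. Smtn, the most abundant of the list, lay between 3925 and 5801 untreated and between 1716 and 2789 with BBN. Myh11 and Des were at or below 172 in every library. Urothelial markers summed to between 740934 and 982276 untreated and between 500723 and 656216 with BBN, which is between 1.45% and 2.52% of all normalized counts of a library, so that defining markers of the labelled tissue were abundant in all 8. That sum includes uroplakins, Krt5 and Krt18, which were used for the direction. Uchl1, of nerve, was 28159 in untreated library 1 beside 48.3 to 1515 in the other 7, and of 8 nerve and Schwann cell markers 2 were called higher, among them Ngfr, and 4 lower, a count of 2 without untreated library 3. Of 5 red blood cell markers 0 were called, with 0 at an unadjusted p under 0.05 in limma and sums between 80.6 and 6362 untreated, of 2 prostate and seminal vesicle markers 1 was called higher, and of 4 Y-linked genes 0 were called, with 0 at an unadjusted p under 0.05.

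**Figure D5:**
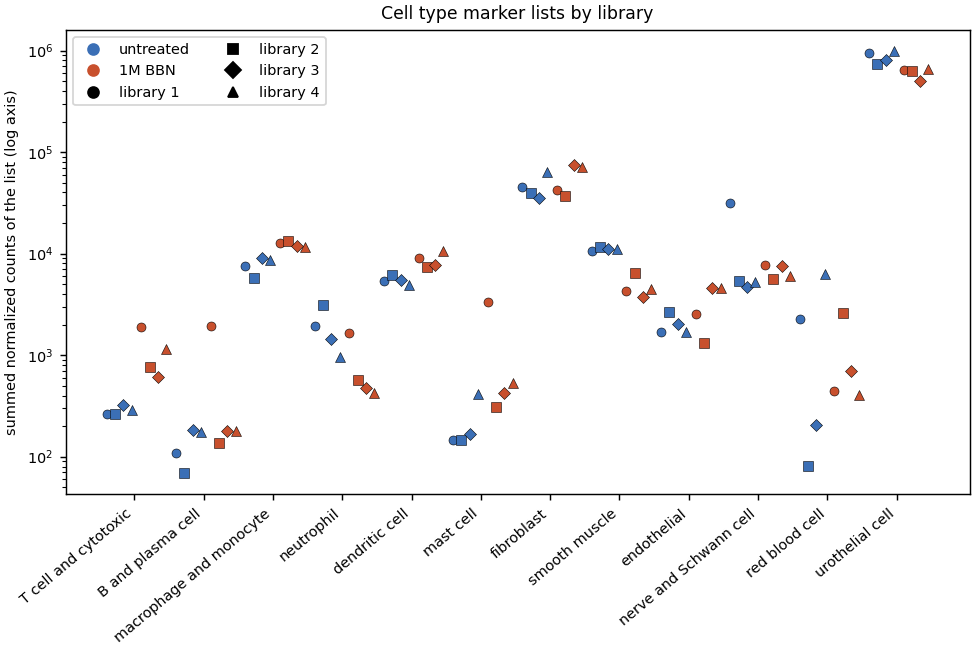
Summed normalized counts of 12 cell type marker lists in each library on a log axis, blue for untreated and red for 1M BBN, with 1 symbol per library number. T cell, macrophage and dendritic cell sums do not overlap between the sets, fibroblast sums overlap (35390 to 63909 untreated and 36981 to 75026 with BBN), and BBN library 1 stands above the others for B cell and mast cell markers. The T cell sum includes genes used for the direction, among them Cd4, Cd8a and Foxp3.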

How the data were processed

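RNA-seq of urothelium from 4 untreated and 4 1M BBN samples was analysed. Per the labels, the authors quantified reads with kallisto 0.44.0 and normalized with DESeq2 1.18, and by the study's methods transcripts were summed to genes with tximport. The deposited signal values are normalized counts, scaled by the authors with DESeq2 factors that are not the same for all genes, so whole reads and read depth could not be recovered: a tested step gave whole numbers, within 0.02, for between 11.9% and 34.3% of values under 50. The submitters' notes name the builds GRCm38 and GRCh38. The deposited log2 fold changes and p-values of the authors' own comparison, and the tables of other experiments, were not used.

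In R 4.3.3, limma 3.58.1 (lmFit, eBayes with trend) was run on log2(value + 1) for genes with 10 normalized counts or more in 4 libraries or more, and p was adjusted over all tested genes with the Benjamini-Hochberg method at 0.05. A count test was not run, since the values are not counts. Fits were tested on simulated data, of which no result is given here. The columns are placed in sets by inference, as the report describes, although a preset form of the check required Krt20 not to overlap, which it does. The genes used for that inference were left out of the counts of lists. Named genes are the stained markers, genes named in the study's text, the 10 largest rises and falls (called, no overlap, mean of at least 100, no predicted genes or pseudogenes), up to 6 called and 3 uncalled genes of each of 30 lists, and markers from 14 cell type lists. Outside this rule, 23 genes were chosen after their values were seen (Pparg, Trp63, Dst, Krt13, Tgm1, Sprr1a, Dsg2, Mdm2, Ccng1, Bax, Gstm4, Mgst1, Nqo1, Egf, Erbb3, Shh, Mmp11, Plau, Il1rn, Ccl28, H2-K1, Cd274 and Lcn2). The samples and lists were chosen with earlier results of these data known. Promoters came from RefSeq (GRCm38.p6), and summaries and plots were made in Python 3.11.15 (pandas 2.3.3, matplotlib 3.10.9). Marker sums without the most abundant member were added after the values were seen. Alternatives were other pseudocounts, filters, eBayes settings, array weights, scalings, a fold threshold, each library left out, and the removal of ribosomal protein genes and pseudogenes.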

Additional observations from a re-analysis of the deposited data

Results flagged for a closer look

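A library stood far from the 3 others of its set in 29 of the 368 sets of 4 examined, by Dixon's gap test on log2(value + 1). Chance sets apart about 1 in 20. The sets came from most of the named genes that were tested. Ribosomal protein copies and some cell type markers, Uchl1, Jchain, Gzma and S100a8 among them, were not examined in this way. In BBN library 3, Upk1b (24385), Pdk4 (320.2) and Scnn1g (154) were low, and Krt10 (677), E2f8 (682) and Gabrp (5172) were high. In BBN library 1, Fgfr3 (7393), Cacna1h (81.3) and Csf3r (274) were high, and Egfr (2091) and Oas1a (546) were low. In BBN library 4, Krt6a (12274) and Krt6b (32.5) were low, and Fscn1 (7816) was high. In untreated library 2, Fgfr3 (7867), Upk3bl (487), Krt4 (1219), Pkp1 (1484), Id3 (4626) and Wnt7a (1.05, with 0 in the others) were high, and Bmp2 (4960) was low. In untreated library 3, Scnn1g (4688) and Anxa10 (2.66) were high, and Krt6a (2.47) and Rela (2144) were low. In untreated library 4, Krt10 (472) and Reg3g (62.7) were high, and Ccr7 (1.83) was low. In untreated library 1, Krt6b (1.11, with 0 in the others) was high. BBN library 2 was set apart for none of these genes.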

How the results depend on the processing

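The count of called genes (7522, with 3815 higher and 3707 lower) ranged from 6823 to 7735 over the other pseudocounts, filters, eBayes settings, weights and scalings, and from 6630 to 7304 with each library left out, with 3453 to 3687 higher and 3177 to 3645 lower. Tested against a log2 difference of 1 with limma's treat, 1448 genes passed, 963 higher and 485 lower, so that 66.5% of calls were higher in place of 50.7%. Among the named genes examined above for libraries set apart, 144 were called and not used for the direction. Of these, 40 lost the call under treat, and 5 lost it under some other alternative. Among genes that were not called, signs turned without a call. Klf5 reached 0.045 after quantile normalization. With each library left out, Klf5 ranged from -0.14 to 0.046, Krt7 from -0.087 to 0.041, Krt8 from -0.0082 to 0.26, Cldn4 from -0.081 to 0.28 and Egfr from -0.024 to 0.22, all on the log2 scale. With at least 50 normalized counts, 1 T cell marker in place of 9, 5 chemokine genes in place of 12 and 5 cytokine genes in place of 8 were called higher, since fewer were tested. The depth in reads is not known, so the counting error of low values, which may rest on a few reads, was not estimated. No paired analysis was possible because the columns carry no replicate number.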
